A study of Homo sapiens with 14 samples.

Results

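The effect of a FLAG tag on wildtype GATA3 was followed through 4 of the 12 chromatin immunoprecipitation sequencing (ChIP-seq) peak lists of the series, 2 of tagged wildtype GATA3 (WT-FLAG) and 2 of untagged wildtype GATA3 (WT). The libraries were chosen by their labels and not by any measured value. All came from untreated MDA-MB-231, a line grown from a triple-negative breast carcinoma, harvested on day 3. The tagged protein carries FLAG, a short peptide epitope, on its C-terminal end. The same antibody against GATA3 was used for tagged and untagged cells. The 8 libraries of the point mutants A442M and G444E, 2 with and 2 without the tag for each mutant, served for comparison. No list of the 2 empty-vector samples was analysed here. The sources used here do not give the vector, its promoter, whether the cells are a clone or a pool, or whether replicates were separate cultures, so the spread between replicates may be technical.

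GATA3 is a zinc-finger transcription factor that binds the DNA motif GATA and drives luminal differentiation of breast epithelium and the T helper type 2 programme of T cells. Its levels are set in part by degradation, and breast cancers often carry mutations near its C-terminal end. According to the design text of the series, the tag stabilises the GATA3 protein whether or not it is mutated, so the pair of groups compares the same factor in a stabilised and an unmodified form. The lists give the position of each peak and a score from the authors, from which the rank of a peak within its own list was taken. A percentile of 90 means that 90% of the peaks of that list had a lower score.

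WT-FLAG lists were longer, and their peaks were wider. WT-FLAG replicates 1 and 2 had 43208 and 36955 peaks, against 28890 and 25248 peaks in WT replicates 1 and 2. Both tagged lists exceeded both untagged ones, and the mean ratio was 0.57 in log2. The bases covered by peaks amounted to 20.5 ± 0.737 Mb in WT-FLAG and 10.1 ± 0.245 Mb in WT (SD, n = 2 each), a ratio of 2.04. With 2 libraries a group, an exact permutation test, two-sided, cannot go below p = 0.333, so no difference between WT-FLAG and WT below can pass a threshold of 0.05. Of 15 list-wide measures compared in this way, 14 had groups that did not overlap and reached that smallest value, and the exception is named below. Several measures restate each other and all rest on the same 4 libraries, so the tally is not a count of separate results. Read depth behind the lists is unknown.

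The untagged wildtype lists stood apart before any region was compared. Peaks on contigs outside the main chromosomes numbered 24 and 18 in WT-FLAG, against 110 and 84 in WT. The untagged A442M lists had 75 and 57, and the other 6 mutant lists 16 to 25. The narrowest peak was 203 and 239 bp in WT-FLAG, against 169 and 186 bp in WT. Among the mutant lists it ranged between 187 and 244 bp. MACS2, the peak caller, reports in its default setting no peak narrower than the fragment length it estimates. Tag and any difference in how these libraries were made cannot be told apart in a comparison of WT-FLAG with WT.

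Merging the 134301 peaks of the 4 lists wherever they shared 1 bp or more gave 58391 regions. A region counted as called by a library with a peak in it. Those called in both WT-FLAG libraries and in neither WT library (WT-FLAG-only) numbered 9820, or 16.8% of all regions. Regions called in both WT libraries and in neither WT-FLAG library (WT-only) numbered 2523, or 4.32%. A further 14131 regions (24.2%) were called in all 4 libraries. Much of the asymmetry went with list length. When each list was cut to its 25248 highest scores, the length of the shortest, 4870 regions were WT-FLAG-only (11.5% of 42469) and 3964 were WT-only (9.33%), with 11488 in all 4. Cutting the lists moved WT-FLAG replicate 1 to a lowest score of 17.5 and WT-FLAG replicate 2 to 13.5, against 7.48 in WT replicate 1 and 5.00 in WT replicate 2. Of the 9820 WT-FLAG-only regions, 46.8% were still in both cut WT-FLAG lists, 26.1% in 1 of them and 27.1% in neither.

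**Figure D1:**
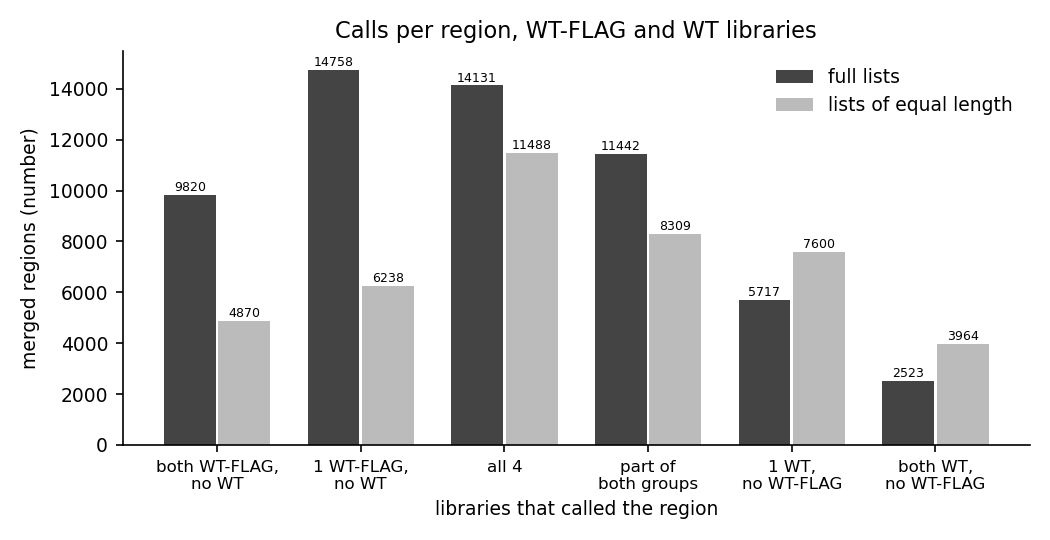
Number of merged regions (y axis) by the libraries that called them (x axis), for full lists (dark bars) and lists cut to the 25248 highest scores (light bars). With full lists 9820 regions were called in both WT-FLAG and no WT library and 2523 the other way, and with equal lists 4870 and 3964.

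Single pairs of full lists gave the same direction, which the greater length of the WT-FLAG lists largely fixes in advance. WT-FLAG replicate 1 called 21299 regions that WT replicate 1 did not, and WT replicate 1 called 7026 that WT-FLAG replicate 1 did not. The pair of replicates 2 gave 18832 regions on the WT-FLAG side and 6722 on the WT side. Of the regions of WT-FLAG replicate 1, 68.6% were shared with WT-FLAG replicate 2, which had 79.1% of its own in common with replicate 1. Over the 4 pairs of a WT-FLAG and a WT library, 42.5% to 50% of WT-FLAG regions were called by the WT library and 65.4% to 75.1% of WT regions by the WT-FLAG library. Most of what a WT library called was thus also called under the tag.

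How often the other group had a peak went with its rank. In the highest 10% of a list by score, 85.9% of WT-FLAG replicate 1 peaks and 88.0% of WT-FLAG replicate 2 peaks overlapped peaks of both WT libraries, and 87.9% and 90.3% of WT replicate 1 and 2 peaks overlapped both WT-FLAG libraries. At 40% to 50% from the top the shares were 33.4% and 38.1% for the WT-FLAG lists, against 65.4% and 67.2% for the WT lists. In the lowest 10% they were 8.08% and 9.88% for WT-FLAG, against 36.4% and 37.4% for WT. The strongest peaks were thus shared to a like extent from either side, and the lists parted below them. These shares are from full lists, where WT-FLAG peaks were matched to shorter lists than WT peaks were. The part of list length in the lower WT-FLAG shares was not tested. Even the highest 10% had one-sided peaks: 6.5% and 5.93% of WT-FLAG peaks there met no WT peak, while 99.0% and 99.9% met a peak of the other WT-FLAG replicate. Among WT peaks of the highest 10%, 5.54% and 4.59% met no WT-FLAG peak.

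**Figure D2:**
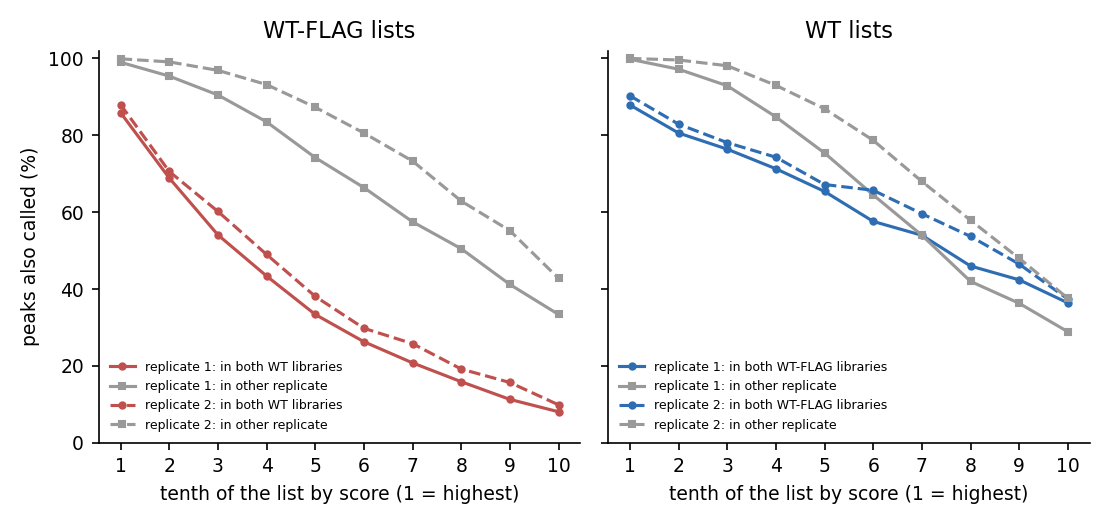
Share of peaks also called elsewhere (y axis, %) by steps of 10% of the list (x axis, 1 is the highest score), WT-FLAG lists left and WT lists right, with solid and dashed lines for replicates 1 and 2. Coloured lines give overlap with both libraries of the other group and grey lines overlap with the other replicate. With full lists of unequal length, the WT-FLAG lines drop to 8.08% and 9.88% in the lowest step and the WT lines to 36.4% and 37.4%.

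Most one-sided regions were of low or middle rank. The lower of the 2 percentiles had a median of 34.0 in WT-FLAG-only regions and 37.7 in WT-only regions, against 70.0 in the WT-FLAG lists for regions of all 4 libraries. A lower percentile of at least 90 was reached by 150 WT-FLAG-only regions and by 97 WT-only regions. The highest, in AOPEP, an aminopeptidase gene, stood at percentile 99.8 in both WT-FLAG lists, and no WT library had a peak in it. That region spans chromosome 9 from 94743282 to 94744696 (hg38), inside the gene.

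The 15 highest WT-FLAG-only regions had lower percentiles of 98.0 to 99.8, and each was also called in all 8 mutant libraries. A region inside PPARD, a nuclear receptor of fatty acid metabolism (chromosome 6, 35346545 to 35347094), stood at percentiles 98.4 and 98.1 in WT-FLAG replicates 1 and 2. One inside PTPN14, a phosphatase that restrains the Hippo effector YAP (chromosome 1, 214377697 to 214378908), stood at 98.0 and 99.2. One between genes, 23780 bp from PITX1, a homeobox factor of hindlimb patterning (chromosome 5, 135058059 to 135059079), stood at 98.0 and 98.1. Regions named by SCARF1, C19orf47, AMPD2, PRPH2, CAP2, SIGLEC5, NEK8 and SECISBP2L also belong to the 15. Of the other 3, on chromosomes 1, 5 and 17, the centre lay 104727, 174128 and 244924 bp from any protein-coding gene end. The 15 were chosen for having no call in either WT library, so their absence from WT is not a result.

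The 15 highest WT-only regions were as strong in their own lists, with lower percentiles of 96.9 to 99.6. A442M-FLAG libraries called none of the 15, and at least 1 G444E-FLAG library called 4. Both untagged A442M libraries called 14 and 1 of them the other, and at least 1 untagged G444E library called 9. A region between genes, 83017 bp from NCK2, an adaptor of tyrosine kinase signalling, stood at percentile 99.6 in both WT lists. One inside CAMK1D, a calcium-dependent kinase (chromosome 10, 12750866 to 12751397), stood at 99.7 and 99.5 in WT replicates 1 and 2. Further ones lay near TMEM72, COL26A1, a collagen, SMPX, a small muscle protein, and STARD5, a lipid carrier. PTGDR, a prostaglandin receptor, POU1F1, a pituitary factor, BCOR, a corepressor, and NR5A2, an orphan nuclear receptor, complete the named ones. Another lay inside PHEX, a peptidase of phosphate balance, over 100 kb from its ends. The region inside NR5A2 (chromosome 1, 200131568 to 200132082) stood at 97.3 and 98.1, and was called in 4 mutant libraries.

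The mutant lists, which had no part in choosing the regions, allow a test of whether one-sided regions follow the tag. WT-FLAG-only regions were called more often with the tag in each mutant. A442M-FLAG libraries called 89.5% and 86.4% of the 9820 regions, against 56.4% and 53.3% in untagged A442M. G444E-FLAG libraries called 75.3% and 64.8%, against 55.4% and 50.5% in untagged G444E. The tagged mutants averaged 79.0% ± 11.3 and the untagged mutants 53.9% ± 2.64 (SD, n = 4 each), a difference of 25.1 percentage points. Every tagged library exceeded every untagged one. The exact permutation test, two-sided, with tag labels permuted within each mutant, gave p = 0.0556, the smallest that 36 arrangements allow, so this design cannot pass 0.05. List length moved with the tag as well. A442M-FLAG lists held 51694 and 42993 peaks, against 39700 and 36078 in untagged A442M, and G444E-FLAG lists 40389 and 30026, against 31200 and 26926 in untagged G444E. With all 12 lists cut to 25248 peaks the difference was 22.5 points, with the same exact permutation p. It was taken over the 4870 WT-FLAG-only regions of equal lists. A442M-FLAG libraries then called 85.3% and 87.2%, against 50.4% and 52.0% in untagged A442M. G444E-FLAG libraries called 76.6% and 77.0%, against 67.1% and 66.6% in untagged G444E, a narrower gap than in A442M. With full lists, untagged mutants called over 50% of the 9820 regions, and 2078 of them (21.2%) were called in all 8 mutant libraries. Those 2078 had a median lower percentile of 66.2. Regions called in all 4 tagged mutant libraries and in none of the 4 untagged ones numbered 232 (2.36%), with a median of 31.5.

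WT-only regions were called less often with the tag in A442M, and in G444E when lists had equal length. A442M-FLAG libraries called 13.6% and 8.72% of the 2523 regions, against 69.6% and 64.4% in untagged A442M. G444E-FLAG libraries called 16.3% and 7.09%, against 15.9% and 10.5% in untagged G444E, so the groups overlapped there. Tagged minus untagged was -55.8 points in A442M and -1.51 points in G444E. Over both mutants the difference was -28.7 points (exact permutation test, two-sided, p = 0.167), and the difference between the mutants had p = 0.167 when genotypes were permuted among libraries of equal tag status (exact permutation test). With all lists cut to 25248 peaks, A442M-FLAG libraries called 4.84% and 5.42% of the 3964 WT-only regions of equal lists, against 54.1% and 53.0% in untagged A442M. G444E-FLAG libraries called 13.4% and 14.4%, against 22.9% and 21.7% in untagged G444E. Tagged libraries then lay below untagged ones in both mutants, and the difference was -28.4 points (exact permutation test, p = 0.0556, the smallest possible). Both A442M libraries and no other mutant library called 649 WT-only regions (25.7%), with a median lower percentile of 48.0 and a highest of 99.2. WT and untagged A442M are also the groups with the most peaks on contigs outside the main chromosomes, and the part of that in the shared calls was not tested.

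**Figure D3:**
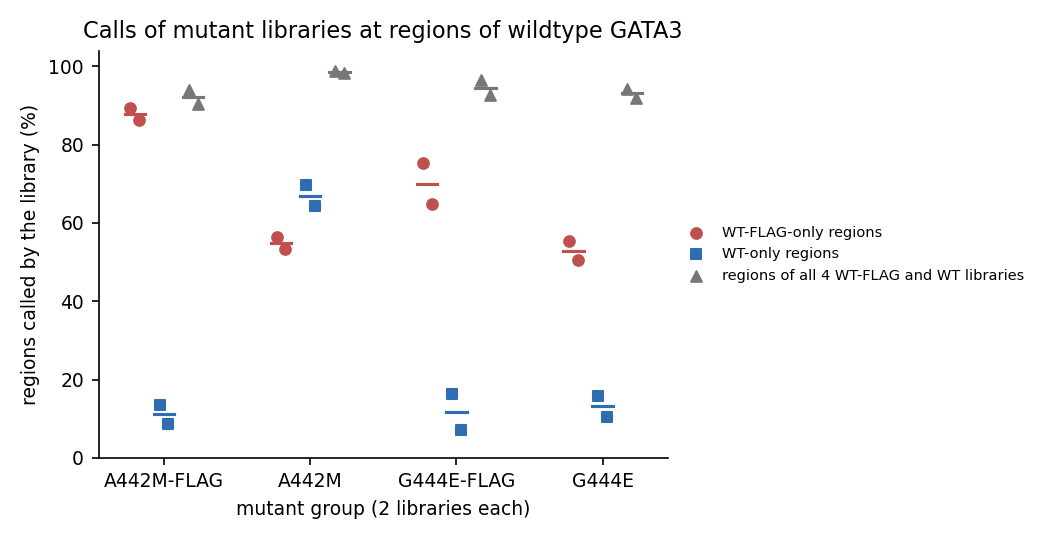
Share of regions called by each mutant library (y axis, %) for 4 mutant groups (x axis), with 2 points a group and a bar at their mean. Circles are the 9820 WT-FLAG-only regions, squares the 2523 WT-only regions, triangles the 14131 regions of all 4 wildtype libraries. Circles sit higher with the tag in both mutants, and squares, here from full lists, are highest in untagged A442M.

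Rank within the WT-FLAG lists went with how widely a WT-FLAG-only region was called. At lower percentiles of 0 to 25 (3670 regions), A442M-FLAG libraries on average called 76.7%, G444E-FLAG 52.1%, A442M 37.4% and G444E 31.9%. At 75 to 100 (863 regions), A442M-FLAG called 99.7%, G444E-FLAG 98.5%, A442M 89.8% and G444E 94.9%. The gap between tagged and untagged mutants was therefore widest among weak regions and small among the strongest. WT-only regions at 75 to 100 (344 regions) were called to 6.69% in A442M-FLAG, 16.0% in G444E-FLAG, 81.8% in A442M and 24.0% in G444E. Regions called in all 4 wildtype libraries were called to 90.4% or more in each mutant library.

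Some one-sided regions were called in no mutant library. Of the WT-FLAG-only regions these were 105 (1.07%), all of middle or low rank with a median lower percentile of 7.60. The highest of these lay inside DAAM1, a formin that organises actin (chromosome 14, 59194388 to 59194707), at percentiles 48.4 and 42.9 in WT-FLAG replicates 1 and 2. The next lay inside ARL15 and ATXN1 and near ASDURF, ZNF184 and GSE1, at lower percentiles of 29.8 to 37.6. Of the WT-only regions they were 391 (15.5%), whose lower percentile reached 95.3. That highest region lay 84382 bp from NOG, a secreted inhibitor of bone morphogenetic proteins. Others lay inside CDC42SE2, an effector of the GTPase CDC42, PLXNA2, a semaphorin receptor, and FKBP5, a co-chaperone of steroid receptors. The region inside FKBP5 (chromosome 6, 35606257 to 35606466) stood at percentiles 91.6 and 86.3 in WT replicates 1 and 2 and was 210 bp wide.

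Wildtype GATA3 had wider peaks with the tag, also at the same sites. Median peak width was 388 and 467 bp in WT-FLAG, against 302 and 335 bp in WT. With lists of equal length the group means were 495 ± 53.7 bp in WT-FLAG and 326 ± 13.4 bp in WT (SD, n = 2 each), a mean log2 ratio of 0.60. With full lists that ratio was 0.42. The cut took more low-scoring peaks, which were narrower, from the WT-FLAG lists, and its part in the larger ratio was not tested. In the 14131 regions of all 4 libraries the median width of the widest peak was 520 and 603 bp in WT-FLAG, against 383 and 402 bp in WT. Both WT-FLAG peaks were wider than both WT peaks in 57.3% of these regions, and narrower than both in 6.75%. The difference remained after the narrowest peak of each list was subtracted, with 317 and 364 bp left in WT-FLAG, against 214 and 216 bp in WT. Both WT-FLAG values then exceeded both WT values in 45.9% of regions, and the reverse held in 11.7%. Replicate 2 had wider peaks than replicate 1 in each group, and the part of fragment length in the widths was not tested beyond this subtraction. In the mutants the separation depended on list length. With full lists, median width was 353 and 436 bp in A442M-FLAG, against 354 and 391 bp in untagged A442M, and 352 and 464 bp in G444E-FLAG, against 356 and 413 bp in untagged G444E. Tagged and untagged libraries overlapped in both mutants. With lists of equal length it was 448 and 527 bp in A442M-FLAG, against 412 and 439 bp in untagged A442M, and 406 and 494 bp in G444E-FLAG, against 381 and 422 bp in untagged G444E. The groups then lay apart in A442M and overlapped in G444E. In A442M the cut left lowest scores of 21.5 and 17.8 with the tag, against 14.3 and 12.7 without. It thus took more weak peaks from the tagged A442M lists, and its part in that separation was not tested.

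**Figure D4:**
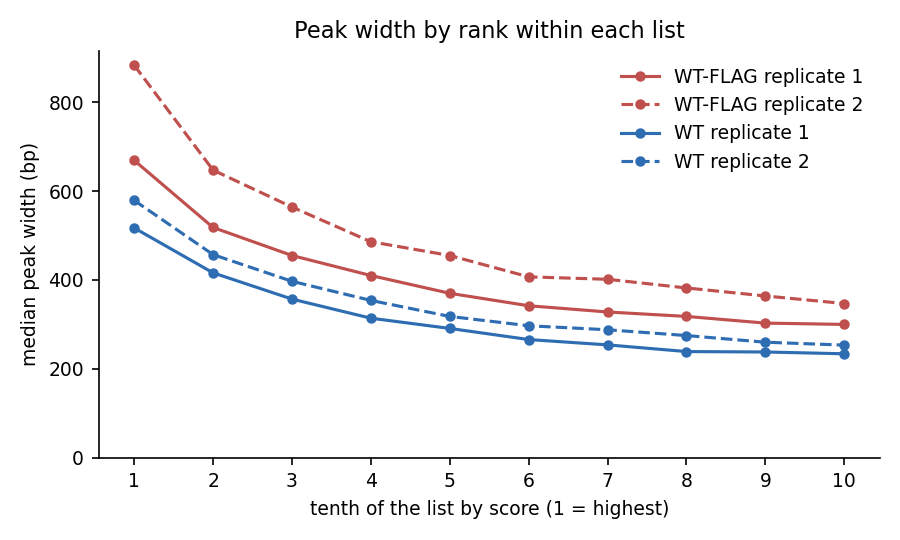
Median peak width (y axis, bp) by steps of 10% of the list (x axis, 1 is the highest score), with WT-FLAG in red, WT in blue, and solid and dashed lines for replicates 1 and 2. In the highest step the medians were 669 and 883 bp in WT-FLAG and 517 and 579 bp in WT, and both WT-FLAG lines lie above both WT lines in each step.

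One-sided regions of the 2 kinds lay in different parts of the genome. The nearest protein-coding gene end was over 100 kb away for 19.4% of WT-FLAG-only regions and for 40.1% of WT-only regions, with 23.1% for regions of all 4 libraries. WT-FLAG-only regions lay inside a gene span in 56.7% and WT-only regions in 37.7%, with 49.8% for regions of all 4. The median distance to the nearest region of all 4 libraries was 28.7 kb for WT-FLAG-only and 87.0 kb for WT-only regions. The contrast held among strong regions: at lower percentiles of 75 to 100, 18.5% of 863 WT-FLAG-only and 36.9% of 339 WT-only regions lay over 100 kb from a gene end. With lists of equal length the shares were 19.1% and 35.3%. In each of the 4 single pairs of a WT-FLAG and a WT library, 17.9% to 19.9% of regions on the WT-FLAG side and 31.5% to 35.6% on the WT side lay that far out. Across whole lists, 20.8% ± 0.754 of WT-FLAG peaks and 26.3% ± 0.638 of WT peaks did (SD, n = 2 each, groups did not overlap). In the mutants it was 20.7% and 21.7% in A442M-FLAG, against 24.2% and 25.1% in untagged A442M, and 19.95% and 21.4% in G444E-FLAG, against 21.2% and 22.0% in untagged G444E, where the groups overlapped. Regions are not replicates, and no test was made over them.

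**Figure D5:**
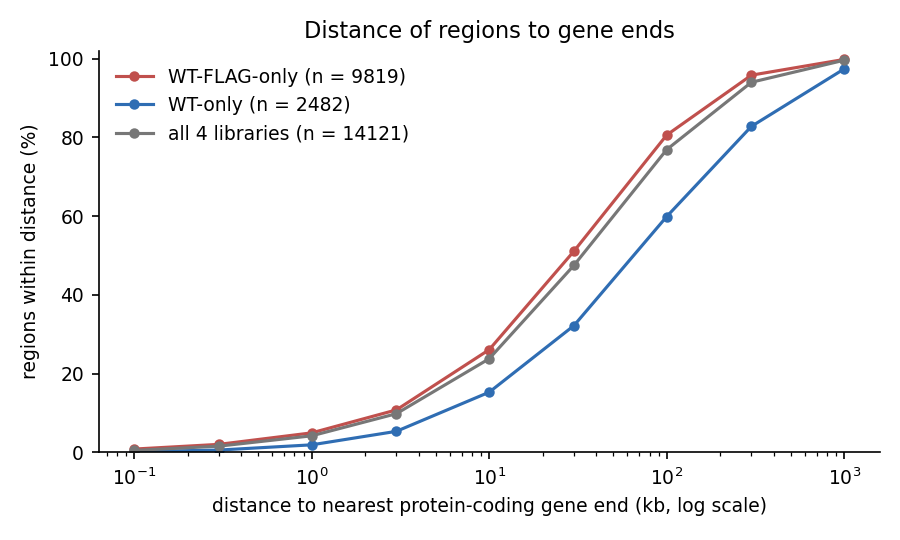
Cumulative share of regions (y axis, %) within a distance of the nearest protein-coding gene end (x axis, kb, log scale), for WT-FLAG-only (red), WT-only (blue) and regions of all 4 libraries (grey) on the main chromosomes. Within 100 kb lay 80.6% of WT-FLAG-only, 59.9% of WT-only and 76.9% of shared regions.

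The same contrast showed by chromosome. There were 3.89 WT-FLAG-only regions for each WT-only region over the genome. The ratio was 6.60 on chromosome 17, 6.31 on chromosome 19 and 6.21 on chromosome 22, and it was 1.70 on chromosome 21, 2.40 on chromosome X, 2.47 on chromosome 13 and 2.51 on chromosome 18. Across 23 chromosomes its rank correlation with the density of protein-coding genes was 0.684, a description over points that share the same 4 libraries. WT-only regions off the main chromosomes numbered 41, and WT-FLAG-only regions 1.

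Close to genes the lists differed by fewer percentage points. As a ratio of WT-FLAG to WT means the difference was not smaller, at 1.34 within 1 kb, against 0.793 for peaks over 100 kb out. Peaks with their centre within 1 kb of a protein-coding gene end made up 6.88% and 4.86% of WT-FLAG lists, against 4.85% and 3.93% of WT lists. The spread between replicates was of the size of the group difference, and the lower WT-FLAG value lay just above the higher WT value. With equal lists the difference in means was 0.0277 percentage points (exact permutation test, p = 1.0), and without WT-FLAG replicate 1 it was 0.473, against 1.48 with all libraries. Around transcription starts the shares were 5.47% and 3.62% in WT-FLAG, against 3.69% and 2.87% in WT, where the groups overlapped (exact permutation test, p = 0.667).

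Among one-sided regions at gene ends, WT-FLAG-only ones numbered 488 (4.97% of their side) and WT-only ones 48 (1.93%). With equal lists they numbered 149 (3.06%) and 132 (3.37%), so the excess went with list length. With full lists PRPH2, a photoreceptor disc protein, had the highest WT-FLAG-only one, followed by CREB3L2, a membrane-bound transcription factor, MCHR1, a neuropeptide receptor, and SLC46A1, a folate transporter. The region at SLC46A1 (chromosome 17, 28394331 to 28395165, centre 106 bp from an end) stood at percentiles 96.5 and 93.3 in WT-FLAG replicates 1 and 2. RGPD8 belongs to a family of near-identical gene copies, so its call at 90.4 and 89.1 is uncertain. CMPK1, a nucleotide kinase, stood at 89.2 and 86.2. On the WT side SPRR3, a protein of the cornified envelope, came first, followed by PDCD1LG2, a ligand of the checkpoint receptor PD-1, CCDC102B, IL26, a cytokine, CASP4, an inflammatory caspase, and ACAD8, a mitochondrial dehydrogenase. Their lower percentiles were 53.6 to 72.9, and IL26 (chromosome 12, 68201092 to 68201300) was called in no mutant library.

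Promoter windows, taken from RefSeq as 250 bases before to 50 bases after a gene start (GRCh38.p14), numbered 22199. WT-FLAG-only regions overlapped 303 of them (1.36%), WT-only regions 19 (0.0856%) and regions of all 4 libraries 423 (1.91%). Windows were searched on both strands for GATAA, the core of GATA sites, and the highest ranked ones with a match are shown, 2 a side, because they carry one-sided calls at a gene start. Capitals mark GATAA or its complement TTATC, and the sequences run 5′ to 3′ on the strand of the gene.
TNFRSF19 (WT-FLAG-only, chr13:23570162-23570461, plus strand): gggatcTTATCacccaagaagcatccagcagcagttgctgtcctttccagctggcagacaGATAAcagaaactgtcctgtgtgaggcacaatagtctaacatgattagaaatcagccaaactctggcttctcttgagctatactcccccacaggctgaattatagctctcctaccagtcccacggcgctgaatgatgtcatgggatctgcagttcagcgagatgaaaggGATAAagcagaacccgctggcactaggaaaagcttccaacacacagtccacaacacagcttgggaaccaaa
SYNRG (WT-FLAG-only, chr17:37609369-37609668, minus strand): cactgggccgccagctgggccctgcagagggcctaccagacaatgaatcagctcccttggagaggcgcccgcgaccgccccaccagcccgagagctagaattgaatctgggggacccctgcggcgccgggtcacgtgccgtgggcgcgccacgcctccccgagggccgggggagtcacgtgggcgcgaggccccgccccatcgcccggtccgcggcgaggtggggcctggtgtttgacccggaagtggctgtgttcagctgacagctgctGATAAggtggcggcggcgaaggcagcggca
SPRR3 (WT-only, chr1:153001499-153001798, plus strand): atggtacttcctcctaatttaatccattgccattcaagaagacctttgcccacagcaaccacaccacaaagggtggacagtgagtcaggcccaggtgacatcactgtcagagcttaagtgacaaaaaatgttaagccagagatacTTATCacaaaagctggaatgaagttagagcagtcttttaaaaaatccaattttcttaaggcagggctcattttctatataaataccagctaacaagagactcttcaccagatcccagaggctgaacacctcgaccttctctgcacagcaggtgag
CASP4 (WT-only, chr11:104968525-104968824, minus strand): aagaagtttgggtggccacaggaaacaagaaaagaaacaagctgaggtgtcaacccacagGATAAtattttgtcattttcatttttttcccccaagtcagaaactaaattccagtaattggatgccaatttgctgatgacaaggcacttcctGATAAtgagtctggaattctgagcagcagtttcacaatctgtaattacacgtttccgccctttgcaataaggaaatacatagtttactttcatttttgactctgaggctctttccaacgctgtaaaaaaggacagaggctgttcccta

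TNFRSF19, a receptor of the tumour necrosis factor family, had 3 matches, and its region stood at percentiles 88.7 and 85.1 in WT-FLAG replicates 1 and 2 and was called in all 8 mutant libraries. SYNRG, a clathrin adaptor partner, had 1 match, and its region stood at 91.5 and 81.5. SPRR3 had 1 match, and its region stood at 81.7 and 72.9 in WT replicates 1 and 2. CASP4 had 2 matches, of which 1 lay inside its region, at 56.3 and 59.8. The matches of the other 3 windows all lay inside their regions. RGPD8 was passed over for its copies. On the WT side the windows of LIMA1 and DIO2 ranked above that of CASP4 and had no match, so they are not shown. GATAA occurred in 62 of the 303 windows under WT-FLAG-only regions (20.5%), in 11 of the 19 under WT-only regions, in 124 of the 423 under regions of all 4 (29.3%) and in 18.6% of all windows. TGANTCA, the AP-1 motif, occurred in 8.91% of windows under WT-FLAG-only regions, in 9.69% under regions of all 4 and in 6.15% of all windows. GGAATG, the TEAD motif, occurred in 13.2%, 14.2% and 12.2% of the same sets. WT-FLAG-only promoter windows were thus near all windows in GATAA, and the WT-only share rests on 19 windows. A match is a description and not a site.

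Among regions that every library called, ranks shifted both ways. In lists of equal length, 846 of 11488 regions (7.36%) ranked at least 20 percentile points higher in both WT-FLAG lists than in either WT list, and 909 (7.91%) ranked at least 20 points lower. Percentiles of these regions correlated at 0.740 between WT-FLAG replicates and 0.794 between WT replicates, against 0.407 to 0.529 between a WT-FLAG and a WT library. These correlations run over regions of the same 4 libraries and are given as a description. With full lists, where ranks are not comparable, the counts were 1707 and 501. Leaving out 1 library, with lists of equal length, also moved the balance. Without WT-FLAG replicate 1 it was 1348 higher and 2131 lower, and without WT-FLAG replicate 2 1222 and 2333. Without WT replicate 1 it was 1781 and 1297, and without WT replicate 2 2200 and 1386. Which direction held more regions was thus not settled.

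The largest gap in favour of the tag, on chromosome 8 between genes, was at percentiles 92.2 and 85.8 in WT-FLAG and 2.60 and 0.792 in WT. The next was a region inside NEDD9, a scaffold of integrin signalling (chromosome 6, 11215347 to 11218259), at percentiles 97.9 and 96.4 in WT-FLAG and 7.27 and 17.4 in WT. Its widest peak was 1253 and 2913 bp in WT-FLAG, against 267 and 213 bp in WT. ITGA11, a collagen-binding integrin, stood at 90.5 and 93.2 in WT-FLAG and at 12.1 and 11.1 in WT. ACTR2, a subunit of the actin-nucleating Arp2/3 complex, stood at 84.9 and 92.7 in WT-FLAG and at 2.37 and 7.26 in WT. A region inside CSTPP1 stood at 96.6 and 97.5 in WT-FLAG and at 10 and 19.2 in WT. In the other direction, a region inside SUGCT, far from its ends, stood at 7.29 and 12.8 in WT-FLAG and at 94.3 and 96.0 in WT. TXK, a T cell tyrosine kinase, stood at 20.5 and 15.6 in WT-FLAG and at 95.4 and 96.4 in WT. MAOA, an amine oxidase, and PRSS2, a trypsinogen with near-identical copies whose call is therefore uncertain, were also among the 6 with the largest losses, with 2 regions far from genes. In each of the 6 regions that ranked lower in WT-FLAG the groups were at least 66.3 points apart.

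The GATA3 gene itself (chromosome 10, 8045333 to 8075198) had a region of all 4 libraries inside its span, from 8070654 to 8072006, at percentiles 58.0 and 41.8 in WT-FLAG and 57.8 and 27.8 in WT. Groups overlapped there. Beyond the gene lay a pair of WT-FLAG-only regions, 8084644 to 8085197 at percentiles 59.4 and 71.8, and 8100423 to 8100989 at 65.9 and 59.7. The first was called in 6 and the second in 7 of the 8 mutant libraries. A site between TAF3 and GATA3 (8026844 to 8027322) was called at 38.2 and 20.5 in WT, at 2.26 in WT-FLAG replicate 2 and not in replicate 1.

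Genes with the most WT-FLAG-only regions in their span or within 50 kb of it were AOPEP with 17, MCC, a colorectal tumour suppressor candidate, with 16, ABLIM1, an actin-binding protein, with 15, and EXT1, an enzyme of heparan sulfate synthesis, and PALLD, an actin scaffold, with 14 each. These genes also held 8 to 25 regions of all 4 libraries, and 0 or 1 WT-only regions. WT-only regions were most numerous at KCNIP4, a potassium channel partner, with 7, and at ADAMTS17, CPQ, EYS and FHIT with 5 each. WT-FLAG-only regions there numbered 0 or 1. All of these are long genes, from 317 kb for EXT1 to 1987 kb for EYS, so a high count goes with a long span.

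Gene lists for breast cell identity, signalling and other tissues were counted within the same 50 kb. Over all 20037 protein-coding genes 40.4% had a WT-FLAG-only region within that distance and 9.93% a WT-only region, and with equal lists the shares were 24.7% and 16.0%. Within 10 kb of the gene span, 22.5% of all genes had a WT-FLAG-only and 5.03% a WT-only region, against 13 and 2 of 18 matrix and adhesion genes. Within 50 kb, of 18 matrix and adhesion genes 16 had a WT-FLAG-only region and 2 a WT-only region (13 and 6 with equal lists). COL4A1, a basement membrane collagen, and LAMA3, a laminin chain, had 6 WT-FLAG-only regions each and no WT-only region. CD44, a hyaluronan receptor, had 3 and 2. Of 22 Hippo pathway genes and targets the counts were 16 and 1 (15 and 6 with equal lists). PTPN14 had 11 WT-FLAG-only regions and TEAD1, a DNA-binding partner of YAP, had 10, with no WT-only region at either. The median gene of these lists spans 95.9 kb and 51.2 kb, against 24.1 kb over all genes, and the part of length in the counts was not tested.

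Breast cell type and estrogen response genes had more WT-FLAG-only than WT-only regions with full lists, as did all protein-coding genes (40.4% and 9.93%). Of 24 luminal genes 15 had a WT-FLAG-only and 1 a WT-only region (5 and 1 with equal lists). The luminal WT-FLAG-only count with equal lists was near the background share of 24.7%. CA12, a carbonic anhydrase, had 4 WT-FLAG-only regions and CDH1, the epithelial cadherin, had 3. Of 16 basal genes 12 and 1 had one (7 and 3 with equal lists), led by the caveolin CAV1 and the receptor EGFR with 4 WT-FLAG-only regions each. Of 18 mesenchymal genes the counts were 11 and 3 (10 and 4 with equal lists). CDH2, the mesenchymal cadherin, had 6 WT-FLAG-only and 1 WT-only region, and COL1A1, a fibrillar collagen, had 5 and 0. Of 15 estrogen response genes 9 and 1 had one (3 and 1 with equal lists, also near the background share for WT-FLAG-only regions). Among them was IGFBP4, a growth factor binding protein, with 3 WT-FLAG-only regions.

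Regulators and partners of GATA3 were counted in the same way. The shares over all genes beside them are 40.4% and 9.93% with full lists, and 24.7% and 16.0% with equal lists. Of 17 GATA family and cofactor genes 8 had a WT-FLAG-only and 1 a WT-only region (6 and 5 with equal lists). RUNX1, a partner of GATA factors, had 6 WT-FLAG-only regions beside 17 of all 4 libraries. TRPS1, an atypical GATA repressor, had 4 beside 7. RUNX3, a related factor, had 3 WT-only regions and no other. Of 18 ubiquitin and proteasome genes 11 and 0 had one (3 and 2 with equal lists). PSMD1, a proteasome subunit, had 5 WT-FLAG-only regions and FBXW7, a ubiquitin ligase subunit that targets GATA3, had 4. Of 15 TGF-beta pathway genes the counts were 9 and 2 (4 and 7 with equal lists), so their lean turned with list length. TGFB2 had 6 WT-FLAG-only and 1 WT-only region, and SMAD3 had 3 and 1. Of 10 AP-1 family genes 4 and 0 had one (1 and 1 with equal lists), FOSB among them with 2.

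Cell cycle genes had 9 of 17 with a WT-FLAG-only and 1 with a WT-only region, with CDK6 at 5 regions. Interferon response genes had 9 and 0 of 16, and housekeeping genes 9 and 1 of 14. The shares over all genes are again 40.4% and 9.93% with full lists, and 24.7% and 16.0% with equal lists. Genes of other tissues were lower or near the background: T cell genes had 7 and 1 of 16, muscle genes 6 and 1 of 15, neuronal genes 3 and 2 of 15, and erythroid genes 2 and 1 of 17. With equal lists those of cell cycle, interferon and housekeeping genes were 4 and 2, 4 and 2, and 7 and 1. For T cell, muscle, neuronal and erythroid genes they were 5 and 2, 2 and 2, 1 and 3, and 3 and 1. Housekeeping genes, picked for neither breast cell identity nor signalling, lay above the WT-FLAG-only share with full and with equal lists. IL7R, a cytokine receptor of lymphocytes, had 2 WT-FLAG-only and 1 WT-only region. Differences between lists were not tested, and a nearby region does not make a gene a target.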

How the data were processed

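Chromatin of MDA-MB-231 cells was precipitated with a GATA3 antibody, and libraries were prepared with a ThruPLEX kit, per the labels' protocols. MACS2 2.1.4 and FastQC were used with genome build hg38, per the submitters' processing notes. Aligner, control and read depth: not given in the sources used here. The deposited lists are labelled as 5-fold peaks, and no other filter is given. A deposited list holds the peaks of one library, so peaks were called per sample. The deposited score per peak, at least 5.00 in every list, is the authors' own value on a scale the files do not name, and it served to rank or filter peaks of the same list alone. Coordinates are 1-based.

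Peaks of the 4 wildtype lists were merged at 1 bp overlap. Percentiles were computed within each list, and lists were also cut to 25248 peaks. The 20037 protein-coding genes are those of RefSeq on GRCh38.p14, which shares its chromosome coordinates with hg38. The table gives spans without exons, so exons and untranslated regions were not assigned. Distance was measured between the centre of a region and the closest end of any gene span. Exact permutation tests of tag labels were two-sided, over 6 arrangements for 2 against 2 libraries and over 36 within genotype for the 8 mutant libraries. Named regions were the 15 highest one-sided regions of each side, the 6 highest of each side called in no mutant library, the 6 largest rank gaps each way, the 6 highest of each side at gene ends, the 5 genes with the most one-sided regions of each side, up to 3 members of each of 17 gene lists, and GATA3. A name is the nearest gene end within 100 kb. One region that the rule picks is not reported here. The promoter sequences shown were chosen after their values were seen. The groups compared and the lists were chosen with earlier results of these data known. Merging and calling were tested on simulated lists. Python 3.11.15, numpy 2.4.6, pandas 2.3.3 and scipy 1.17.1 were used. Alternatives were a score of at least 10, lists of equal length, calls covering at least 50% of a region, merging up to 200 bp apart, merging over all 12 lists, main chromosomes alone, other windows, a replicate block and leaving out each library. Width above the narrowest peak and transcription starts in place of gene ends were chosen after seeing the data.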

Additional observations from a re-analysis of the deposited data

How the results depend on the processing

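None of the 6 results with a permutation test changed sign under the alternatives run, and none passed 0.05 in any. Comparisons of 2 counts did turn. Cutting lists to the shortest length gave 4870 WT-FLAG-only and 3964 WT-only regions, against 9820 and 2523. That cut took more peaks from the WT-FLAG lists than from the WT lists. With scores of at least 10 in every list the counts were 8774 and 2065. Calls covering at least 50% of a region left 7382 regions in all 4 libraries, against 14131. WT-FLAG-only regions then numbered 13505 and WT-only regions 2542. Regions that ranked higher or lower numbered 1707 and 501 with full lists and 1672 and 1805 with a gap of 10 points, and 820 and 795 with scores of at least 10, against 846 and 909, so which count was larger turned with full lists and with the score. TGF-beta genes turned from 9 and 2 to 4 and 7 and neuronal genes from 3 and 2 to 1 and 3 with equal lists. Genes of the lists with a one-sided region within 10 kb numbered 92, against 154 of 275 within 50 kb. Over all protein-coding genes, 22.5% had a WT-FLAG-only and 5.03% a WT-only region within 10 kb. Within 50 kb these shares were 40.4% and 9.93%. The share of all genes with a region of either side is not given here, so the 2 counts have no direct background. Leaving out one library gave 11857 to 19428 WT-FLAG-only regions, 3393 to 5915 WT-only regions, 15004 to 17276 regions in all remaining libraries, 1222 to 2200 ranked higher and 1297 to 2333 ranked lower, since fewer libraries have to share a call. The log2 ratio of peak number then ranged between 0.45 and 0.68, that of median width between 0.29 and 0.55, the difference at gene ends between 0.473 and 2.49 points and that on contigs between -0.329 and -0.281 points. Without one mutant library the differences were 21.6 to 29.9 points for WT-FLAG-only and -38.5 to -18.8 points for WT-only regions. Of the 68 alternatives on single gene lists, 40 moved a count by over 1.5 times. Same-number libraries share only a number in the labels. Regions called in exactly 1 library of each group numbered 2286 for replicates 1 and 991 for replicates 2, against 275 and 278 for unlike numbers. Percentiles of regions in all 4 equal lists correlated at 0.529 and 0.526 for same-number pairs, against 0.43 and 0.407 for unlike ones. Same-number libraries of the 2 groups were thus more alike, and what the number stands for is not given. Their calls correlated at 0.139 across regions (replicate 1 minus replicate 2, WT-FLAG with WT), and a replicate block, which cannot go below p = 0.5 for 2 pairs, left 9820 and 2523 one-sided regions, gave 0.57 for the log2 ratio of peak number (exact permutation p = 0.5), and 25.1 points (exact permutation p = 0.125) and -28.7 points (exact permutation p = 0.25) for the mutant libraries. Depth is unknown, so a region absent from a list is uncalled and not shown to be unbound.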
